A study of Mus musculus with 2 samples.

Results

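MHC class I presentation was examined in mouse spleen through 10 genes: the class I heavy chains H2-K1 and H2-D1, their light chain B2m, the peptide transporter chains Tap1 and Tap2, the loading factor Tapbp, the immunoproteasome subunits Psmb8, Psmb9 and Psmb10, and Psme1, a chain of the proteasome activator PA28. All probe sets that carry 1 of these symbols alone in the platform annotation were taken, which gave 18 of the 12422 probe sets that are not controls and 10 of the 8251 genes measured. The material was total RNA of mouse spleen, bought under 1 catalogue number and hybridised to 2 arrays, which form 1 group and are called array 1 and array 2. The labels name no strain, age, sex, genotype or treatment, and there is no control group, so no condition was compared and no p-value was computed. The spread between the arrays may be technical, since nothing says that they came from separate animals or extractions.

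MHC class I molecules display peptides from inside a cell on its surface, where CD8+ T cells and natural killer cells read them. Proteasomes cut cytosolic proteins, the TAP transporter carries the peptides into the endoplasmic reticulum, and tapasin holds an empty class I molecule next to the transporter until a peptide is bound. In lymphoid tissue, and elsewhere after exposure to interferon gamma, the catalytic subunits Psmb8, Psmb9 and Psmb10 take the places of Psmb5, Psmb6 and Psmb7 in newly made proteasomes, which are then called immunoproteasomes.

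Of the 10 genes, 7 lie on chromosome 17 in the RefSeq table of GRCm38.p6. Among protein-coding genes there, Psmb9, Tap1, Psmb8 and Tap2 follow each other directly, between the class II genes H2-DMb1 and H2-Ob. B2m lies on chromosome 2, Psmb10 on chromosome 8 and Psme1 on chromosome 14, where Emc9 is the single protein-coding gene between Psme1 and Psme2. RefSeq lists H2-D1 among the synonyms of H2-K1, and H2-K1 among those of H2-D1, so the 2 symbols can be confused between records. The identifiers used here, 14972 for H2-K1 and 14964 for H2-D1, matched the current symbols.

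Upstream sequences are shown for both heavy chains, for the light chain and for the interval between Tap1 and Psmb9, because these are the stretches through which interferons and NF-kappa B are known to act on class I genes, and because 1 interval serves a transporter gene and an immunoproteasome gene. They are RefSeq sequences of GRCm38.p6, read 5′ to 3′ on the strand of the gene and ending at the base before its start of transcription. For H2-K1 that is the first listed of 2 starts. H2-K1 is from chr17:34000348-34000527 on the minus strand, H2-D1 from chr17:35262914-35263093 on the plus strand and B2m from chr2:122147507-122147686 on the plus strand. The interval between the starts of Psmb9 and Tap1, 225 bases at chr17:34187331-34187555, is given on the plus strand, the strand of Tap1. Capitals in H2-K1 and H2-D1 mark GGGATTCCC, the core of the kappa B sequence of the class I enhancer, and then TTTCACTTC, the core of the interferon response sequence. Capitals in B2m mark first the interferon-stimulated response element and then a CCAAT box on the opposite strand, and capitals in the interval mark a CCAAT box and then a GC box on the strand of Psmb9.
H2-K1: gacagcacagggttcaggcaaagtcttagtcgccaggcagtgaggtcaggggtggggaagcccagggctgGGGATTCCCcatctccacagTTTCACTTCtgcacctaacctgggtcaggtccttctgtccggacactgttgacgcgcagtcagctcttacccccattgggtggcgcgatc
H2-D1: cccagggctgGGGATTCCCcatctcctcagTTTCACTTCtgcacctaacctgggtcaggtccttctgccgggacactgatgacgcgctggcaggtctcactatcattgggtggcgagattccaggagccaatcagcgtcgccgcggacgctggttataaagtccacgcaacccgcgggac
B2m: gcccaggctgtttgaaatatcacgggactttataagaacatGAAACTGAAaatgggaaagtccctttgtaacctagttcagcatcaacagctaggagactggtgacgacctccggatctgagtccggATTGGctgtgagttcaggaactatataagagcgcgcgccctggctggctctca
Tap1 to Psmb9: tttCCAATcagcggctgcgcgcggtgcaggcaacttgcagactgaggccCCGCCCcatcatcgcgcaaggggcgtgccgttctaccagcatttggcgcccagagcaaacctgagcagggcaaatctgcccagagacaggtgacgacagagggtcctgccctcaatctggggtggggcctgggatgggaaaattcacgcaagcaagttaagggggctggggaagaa

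Windows of 250 bases before the start were available for 9 of the 10 genes. RefSeq gives 2 starts for H2-K1, of which the first listed was used. Distances from its other start were not computed. The distances given for H2-K1 and H2-D1 therefore do not show that their promoters are laid out differently. In all, 5 patterns of letters were searched on both strands, and none of those printed overlapped another in these windows. GGGATTCCC was found in the windows of H2-K1 and H2-D1, where it began 110 and 170 bases before the start, and in 0.301% of all 32851 RefSeq windows of this length. TTTCACTTC began 90 bases before the start of H2-K1 and 150 before that of H2-D1, and occurred in 0.402% of all windows. Both sequences together were found in 5 windows, which belong to 4 genes, all of them class I heavy chain genes: H2-K1, H2-D1, H2-Q6 and H2-Q7. The 2 patterns were chosen as known sequences of class I genes, so finding them together there is no independent result. In a local alignment the upstream windows of H2-K1 and H2-D1 were identical at 88.3% of 188 aligned bases. GAAANTGAA, a spelling of the interferon-stimulated response element, was found for B2m alone of the 9, 139 bases before the start, and in 1.75% of all windows. Wider spellings of this element were not searched, so the lack of a match in the other members holds for these letters alone. CCAAT occurred in 6 of the 9 windows against 33.8% of all, and the GC box GGGCGG in 4 of the 9 against 32.7% of all. Tap1 and Psmb9 share their CCAAT and GC boxes, which lie in the interval between them. Psmb8 and Psmb10 held none of these 5 patterns. A match is a description of the letters, and these arrays do not measure factors bound to them.

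**Figure D1:**
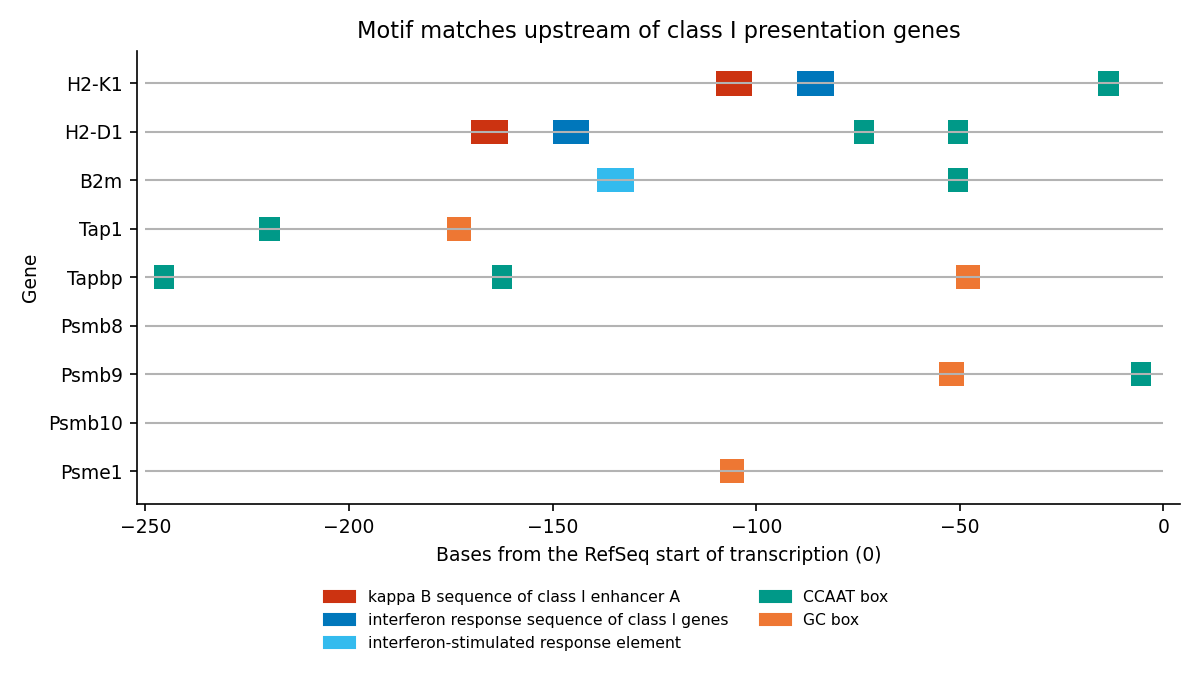
Matches to 5 patterns of letters in the 250 bases before the RefSeq start of 9 class I presentation genes, with distance from the start in bases on the x axis and 1 line per gene. H2-K1 and H2-D1 carry the kappa B and interferon response sequences in the same order, and Psmb8 and Psmb10 carry no match.

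The deposited values are signal intensities on a linear scale, scaled to a common target on both arrays. A probe set was called bright when its signal passed a cutoff on each array, namely that array's 60th percentile, which was 346.32 on array 1 and 342.22 on array 2. Background is given by 15 control probe sets for bacterial genes, whose highest value was 95 on array 1 and 76.2 on array 2. Brightness depends on the probe sequence as well as on the transcript, so levels of different genes are not ranked. In RNA of a whole organ, fewer cells of a type and less RNA per cell cannot be told apart. Markers of B cells, T cells, macrophages and red cell precursors were listed as a check of the labelled tissue, and 12 were measured. All 12 were bright, against 45.2% of all genes, among them the B cell receptor chains Cd79a and Cd79b. Acinar genes of the pancreas were bright too, 7 of 7, against the same 45.2%. Cela1 gave 8838.8 and 8920.3 on arrays 1 and 2, and Ctrb1 gave 23276.2 and 25030.4. The summed intensity of the 7 acinar genes was 59916.2 on array 1 and 61932.2 on array 2, and none was at 0. Their part in the values below was not tested.

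All 10 presentation genes were bright in spleen, against 45.2% of all genes measured. With a gene represented by its probe set of highest mean log2 signal, the median of the 10 was 11.67 on the log2 scale, against 8.29 over all 8251 genes. Of their 18 probe sets 16 were bright, against 37.9% of all probe sets. A stricter cutoff at the 75th percentile was passed by 9 of 10, against 28.5% of all genes. The gene that did not pass it was Tap2, whose probe set lay at the 73.2nd percentile of array 1 and the 72.3rd of array 2. A looser cutoff at the 50th percentile was passed by all 10, against 55.7%. With a gene's probe sets averaged 9 of 10 were bright, all but Psme1, against 38.3%. Without probe sets whose suffix marks shared or relaxed probes H2-D1 was no longer measured, and 9 of the other 9 were bright, against 43.4% of all genes still measured. H2-K1 then rested on 97700_at alone, on which the arrays disagreed, with 626.8 on array 1 and 2455.1 on array 2.

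**Figure D2:**
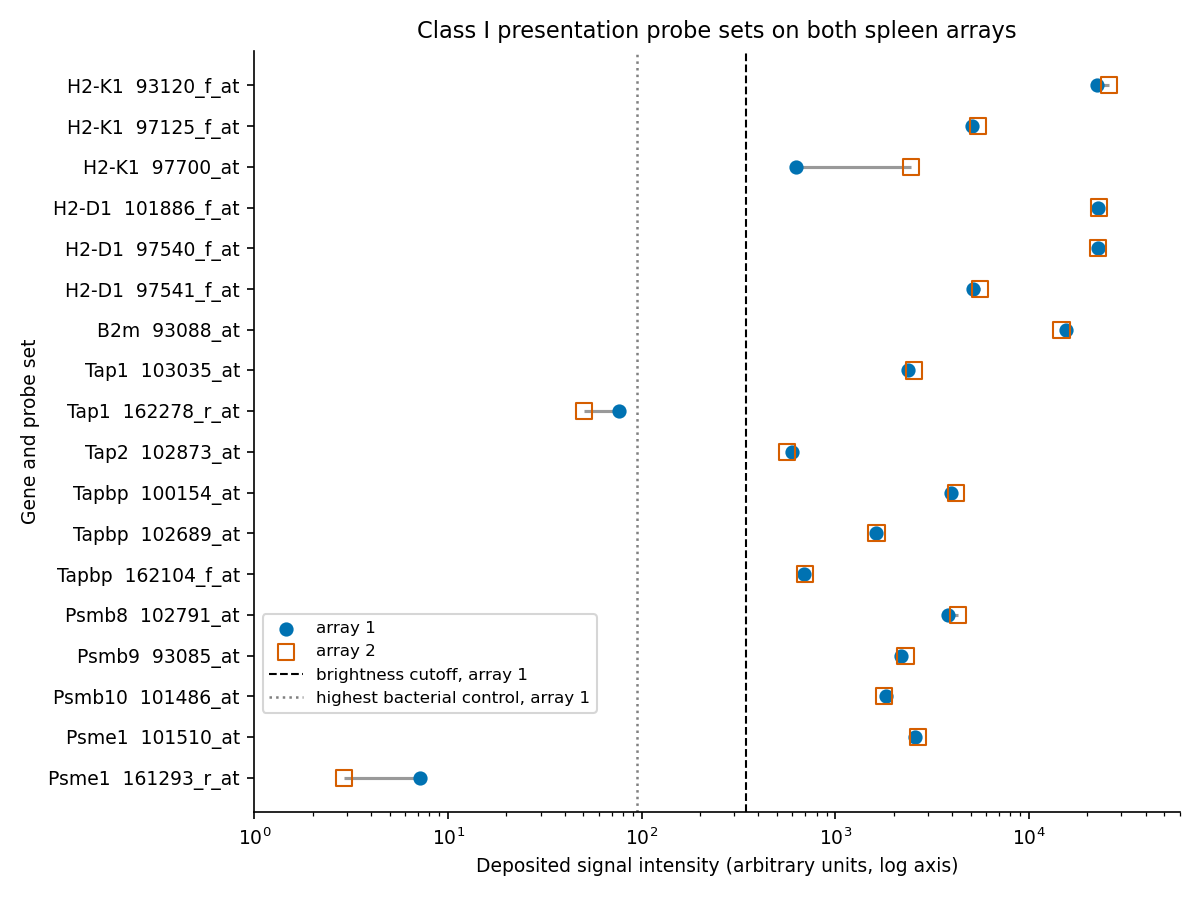
Deposited signal intensity (arbitrary units, log axis) of the 18 probe sets of the 10 genes on array 1 (filled circles) and array 2 (open squares), joined by a line, with the brightness cutoff (dashed) and the highest bacterial control (dotted) of array 1. The arrays lie close together for all bright probe sets other than 97700_at of H2-K1, and the dim probe sets of Tap1 and Psme1 lie below the bacterial control.

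The heavy chains bind the peptide and are the part that T cell receptors see. H2-K1 gave 22408.5 on array 1 and 25817.5 on array 2 with probe set 93120_f_at, a mean of 24113 ± 2411 (SD, n = 2 arrays here and below). A further H2-K1 probe set, 97125_f_at, gave 5068.6 and 5474.2. H2-D1 gave 22756.4 and 23003.3 with probe set 101886_f_at, a mean of 22880 ± 175. Its 97540_f_at gave 22755.6 and 22752.2, and its 97541_f_at gave 5110.3 and 5607.6. All 5 of these probe sets were bright, and their log2 differences, array 2 minus array 1, were at most 0.21.

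Of the 6 heavy chain probe sets, these 5 carry the suffix _f_at, which marks probes shared by a family of similar sequences. Their signal can therefore not be assigned to H2-K1 or H2-D1 alone. Probe set 97173_f_at, annotated to H2-K2 and H2-Q2 together, gave 5080.9 and 5461.9. It and the probe sets 97125_f_at of H2-K1 and 97541_f_at of H2-D1, named for different genes, all lay between 5068.6 and 5110.3 on array 1 and between 5461.9 and 5607.6 on array 2. Whether these 3 read the same transcripts was not tested.

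The third H2-K1 probe set, 97700_at, is the single heavy chain probe set without that suffix, and the arrays disagreed on it. It gave 626.8 on array 1 and 2455.1 on array 2, a mean of 1541 ± 1293. It was bright on both arrays, and its log2 difference of 1.97 was the second largest in size among 4708 bright probe sets, of which 6, or 0.127%, differed by more than 2-fold. The difference lay between 1.97 and 1.98 under each of the 4 scalings tried. The other H2-K1 probe sets had log2 differences of 0.21 and 0.11.

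B2m, the light chain without which heavy chains do not stably reach the surface, gave 15524.4 on array 1 and 14706.3 on array 2. Its mean was 15115 ± 578, with a log2 difference of -0.08. The arrays thus lay within 0.21 on the log2 scale of each other for B2m and for the first-named probe sets of both heavy chains.

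Tap1 and Tap2 form the transporter. Tap1 gave 2365.7 and 2533.7 on arrays 1 and 2 with 103035_at, a mean of 2450 ± 119. Tap2 gave 599.7 and 563.8 with its single probe set, 102873_at, a mean of 582 ± 25.4. A further Tap1 probe set, 162278_r_at, gave 76.0 and 50.3, below the brightest bacterial control of each array. The suffix _r_at marks relaxed probe selection.

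Tapbp encodes tapasin, which bridges class I molecules and the transporter. It was read by 3 probe sets, all bright. 100154_at gave 3930.1 and 4182.1, a mean of 4056 ± 178. 102689_at gave 1618.0 and 1629.5, and 162104_f_at gave 688.4 and 696.6. Within each of the 3 the arrays differed by at most 0.09 on the log2 scale, while the values of the 3 differed from each other far beyond that spread.

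Each immunoproteasome subunit was read by 1 probe set, and all 3 were bright. Psmb8, the chymotrypsin-like subunit LMP7, gave 3831.8 and 4292.3, a mean of 4062 ± 326. Psmb9, the subunit LMP2, gave 2187.3 and 2302.1, a mean of 2245 ± 81.2. Psmb10, the subunit MECL-1, gave 1831.7 and 1786.0, a mean of 1809 ± 32.3. For all 3 the difference between the arrays was at most 0.17 on the log2 scale.

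Psme1 encodes PA28 alpha, a subunit of the ring that caps the proteasome and opens it. It gave 2580.6 and 2678.4 with 101510_at, a mean of 2630 ± 69.2. Its other probe set, 161293_r_at, gave 7.2 and 2.9, below the bacterial controls' highest value. Tap1 and Psme1 were the 2 of 5 genes with several probe sets that had both a bright one and one that was not. Over all 2073 genes with several probe sets the share was 42.5%.

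The 2 arrays were then compared over the 16 bright probe sets of the 10 genes. The median size of the log2 difference was 0.08, against 0.12 over all 4708 bright probe sets. With 97700_at left out, a choice made after its value was seen, the other 15 had differences from -0.09 to 0.21. Their pooled SD was 0.069 on the log2 scale, against 0.355 with it and 0.152 over all bright probe sets. The 3106 probe sets with a mean log2 signal above 9.31, the 75th percentile, include 14 of these 15, and also 97700_at at 10.28. Among them the pooled SD was 0.070 for the 14, without 97700_at, and 0.142 for all 3106, with it. No value was computed there for the 14 together with 97700_at. The 0.070 and the 0.142 thus do not show that these genes vary less than others of similar signal. As deposited, 12 of the 16 were higher on array 2, against 49.7% of all bright probe sets. That number was 13 with centring and 11 with quantile and with loess normalization, so the direction of a few turned with the scaling. Most probe sets of H2-K1 and H2-D1 are marked as reading similar sequences, and the 16 are not independent.

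**Figure D3:**
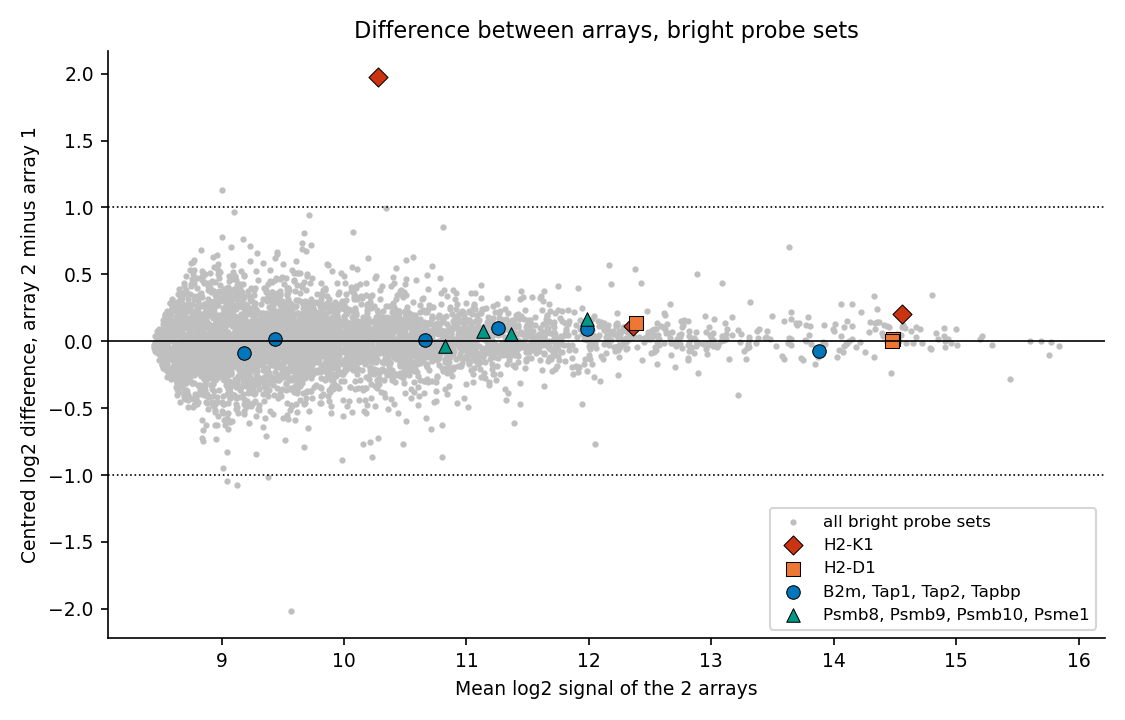
Centred log2 difference, array 2 minus array 1, against the mean log2 signal for all 4708 bright probe sets (grey) and for the 16 of class I presentation (coloured by role), with dotted lines at 2-fold. One H2-K1 probe set stands at 1.97, and the other 15 lie between -0.09 and 0.21.

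Other genes of the pathway were read from lists of neighbours in function. Of 21 other class I heavy chain genes 9 were measured by a probe set of their own and 7 were bright, against 45.2% of all genes. H2-K2, a transcribed pseudogene in RefSeq, gave 19076.2 and 18941.4, and H2-Q4 gave 15654.7 and 14382.1, both with _f_at probe sets that read a family. H2-Q1, at 118.2 and 75.9, was not bright, and H2-M9, at 385.7 and 339.3, passed the cutoff on array 1 alone. H2-M3, which presents peptides with a formylated start, gave 1300.2 and 1070.3 with one probe set and 262.1 and 278.0 with another. At the 75th percentile 4 were still bright, against 28.5% of all genes, and without suffixed probe sets 2 of 4 were, against 43.4%.

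Class I-like molecules encoded outside the MHC were bright in 2 of 6 cases, against 45.2% of all genes. Cd1d1, which presents lipids to natural killer T cells, gave 628.3 and 582.1, and Hfe, a regulator of iron uptake, gave 575.1 and 608.5. Cd1d2, a near copy of Cd1d1, gave 51.2 and 56.3, and Mr1, which presents vitamin metabolites of microbes, gave 53.6 and 17.3. Fcgrt, the neonatal Fc receptor, gave 43.8 and 66.0 and Azgp1 gave 100.1 and 98.3. None of these 4 was bright, and 0 of the 6 genes passed the 75th percentile, against 28.5% of all genes.

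Of 4 measured helpers of peptide trimming and loading 2 were bright, a share near the 45.2% of all genes. Pdia3, the disulfide isomerase ERp57 of the loading complex, gave 1794.0 and 1456.6, and the chaperone calnexin, Canx, gave 450.2 and 630.6 with one probe set and 156.5 and 218.0, not bright, with another. Calr, the chaperone calreticulin, gave 5.9 and 4.7 with its single probe set, below the brightest bacterial control. Whether that probe set reads the Calr transcript was not tested, so these values do not show that Calr is absent. Tpp2, a cytosolic peptidase, gave 133.3 and 115.5.

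In the proteasome lists each gene with a probe set of its own was bright with the one of highest signal. Over all genes the share was 45.2%. These were 3 of 3 catalytic subunits that the immunoproteasome replaces, 11 of 11 shared core subunits and 3 of 3 activators and assembly factors. Proteasome genes outside these lists and the 10 genes were not counted. Psmb5, the counterpart of Psmb8, gave 1214.8 and 1169.2, a mean of 1192 ± 32.2. Psmb6, the counterpart of Psmb9, gave 817.4 and 841.1, a mean of 829 ± 16.8. Psmb7, the counterpart of Psmb10, gave 1018.6 and 1067.6, a mean of 1043 ± 34.6. Both sets of catalytic subunits were thus well above background in this RNA, and their proportion cannot be read from different probe sets. A dimmer Psmb5 probe set, 160559_at, gave 305.6 and 343.6 and passed the cutoff on array 2 alone. All 11 core subunits common to both kinds of proteasome were bright, among them Psma1 at 386.9 and 510.1, Psma2 at 3283.3 and 3198.5 and Psma3 at 3118.0 and 3017.0. Of the further probe sets of Psmb1, 160875_at gave 953.5 and 993.0 and was bright, while 161923_at gave 64.8 and 50.7 and was not. The further probe sets of Psmb4 were not bright. Of these, 98556_at gave 62.4 and 99.3, and 98558_r_at gave 3.7 and 2.8. Psme2, the partner of Psme1 in PA28, was read by probe sets that also name Psme2b, of which 100588_at gave 1832.3 and 1681.1 and was bright, while 161938_r_at gave 23.4 and 71.8, below the brightest bacterial control. The activators Psme3 (PA28 gamma), at 1715.5 and 1620.4, and Psme4 (PA200), at 674.3 and 499.5, were bright, and so was the assembly factor Pomp at 2365.4 and 1916.4.

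Upstream of these genes, 4 of 10 regulators had a probe set of their own and all 4 were bright, against 45.2% of all genes. Irf1, an interferon-induced activator of class I and immunoproteasome genes, gave 1903.2 and 1922.8, and Irf8 gave 3177.4 and 3726.2. Rela, the NF-kappa B subunit p65, gave 3062.4 and 3385.7, and Rfxank, a subunit of the RFX complex, gave 530.3 and 411.5. Another Rela probe set, 162042_i_at, gave 17.7 and 21.2 and was not bright. In the interferon gamma pathway 4 of 6 genes were bright, against 45.2% of all genes. Ifng, the cytokine itself, gave 5.3 and 14.4, below the brightest bacterial control. Its receptor chain Ifngr1 gave 572.7 and 622.3 and was bright, while Ifngr2, at 254.8 and 315.3, was not. The kinases Jak1, at 3387.6 and 2913.2, and Jak2, at 666.6 and 622.7, and the inhibitor Socs1, at 718.3 and 580.2, were bright. Another Jak2 probe set, 96488_at, gave 72.3 and 22.7 and was not bright.

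Of 11 measured receptors that bind class I molecules 4 were bright, or 36.4%, against 45.2% of all genes. They were the co-receptor chains Cd8a, at 536.7 and 567.6, and Cd8b1, at 888.0 and 1199.5, the natural killer receptor chain Klrd1 (CD94), at 390.0 and 358.5, and Pirb, an inhibitory receptor of B cells and myeloid cells, at 1239.0 and 840.4. Klrd1 and Pirb were named after their values were seen. The 7 that were not bright included all 5 measured Ly49 receptor genes, among them Klra2 at 16.8 and 53.0. The brightest bacterial control was exceeded on both arrays by 7 of the 11, against 73.9% of all genes.

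**Figure D4:**
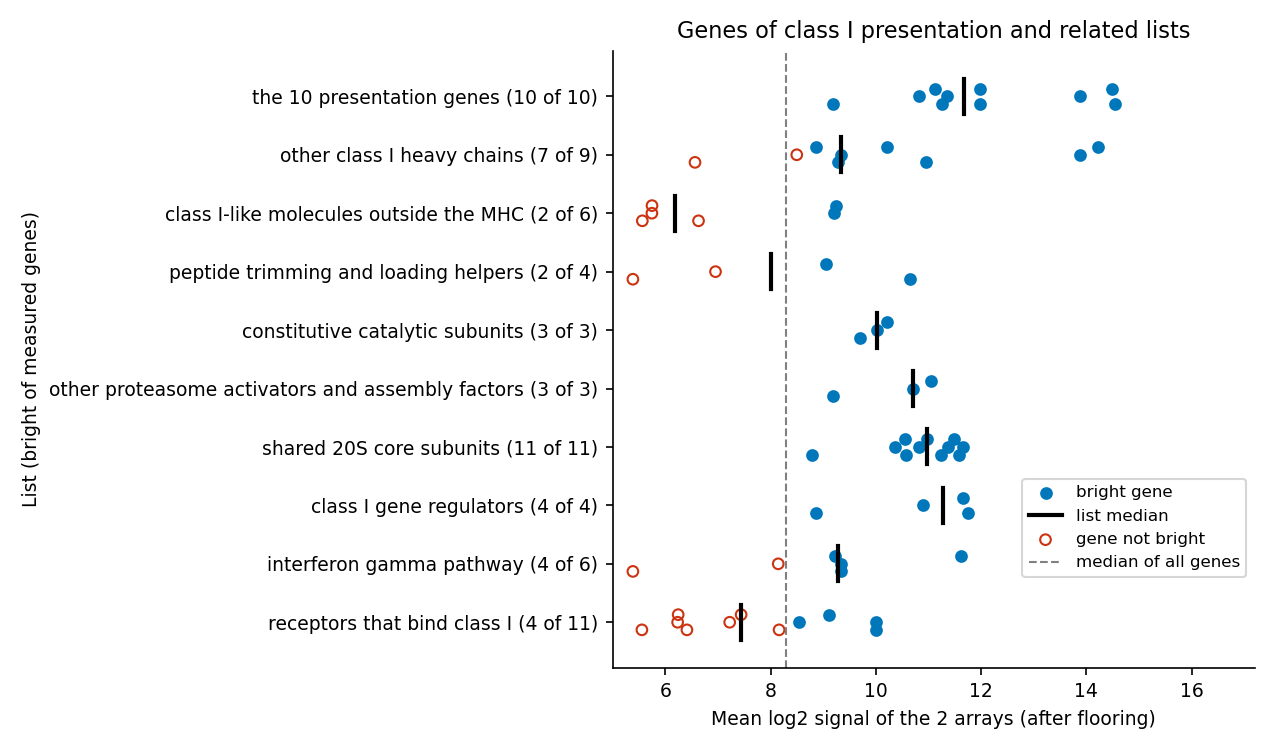
Mean log2 signal of the 2 arrays for each measured gene of class I presentation and of 9 related lists, with filled points for bright genes, open points for others, bars at list medians and a dashed line at 8.29, the median of all genes. All 10 presentation genes, 11 of 11 shared core subunits and 3 of 3 constitutive catalytic subunits were bright, against 45.2% of all genes. Of the class I receptors 4 of 11 were bright, a share near that of all genes.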

How the data were processed

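Mouse spleen RNA was measured on 2 arrays of 12488 probe sets. Each probe set has 1 linear intensity from each array, as the authors deposited it. With the lowest and highest 2% left out the mean was 499.9 on both arrays, so the arrays were scaled before deposit. The software and detection calls are not given in the sources used here. Arrays have no read depth, and precision is limited by their number.

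The 66 controls were left out. Of the rest, 10833 probe sets name a single gene, 396 several and 1193 none in the platform annotation. All 10 gene identifiers were found in RefSeq (GRCm38.p6), and 0 symbols were updated. Values under an array's 20th percentile, 41.8 on both arrays, were raised to it before log2 was taken. Array 1 was subtracted from array 2, the median over bright probe sets was removed, and pooled SDs were computed from these differences. The calculation was tested on simulated data. Named were all members, Psmb5, Psmb6, Psmb7, the first 3 measured genes of each related list, and the genes that were not bright where at most 5 were not; other list genes were picked with their values known. The genes, lists and letter patterns were chosen with earlier results of these data, or the sequences, known. Alternatives changed 1 choice at a time, except that the pseudocount of 16 also replaced the floor. Probe sets that name several genes or none stayed in the shares over all probe sets. A planned comparison of protein sequences was not run. Python 3.11.15, numpy 2.4.6, pandas 2.3.3, statsmodels 0.14.6, matplotlib 3.10.9 and biopython 1.88 were used.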

Additional observations from a re-analysis of the deposited data

Results flagged for a closer look

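Probe sets that name several genes entered no value of the 10 genes above, and 3 of them name H2-K1 or H2-D1 beside other class I genes. Signal above the highest bacterial control was found for 2 of these on both arrays. 102161_f_at, annotated to 10 genes that include H2-K1, H2-D1, H2-K2, H2-T22 and H2-T23, gave 13435.4 on array 1 and 14604.0 on array 2. 97174_r_at, annotated to H2-K1, H2-Q7, H2-Q9 and H2-Q10, gave 294.1 and 263.6 and was not bright. The third, 95773_at, annotated to H2-D1 and 4 H2-Q genes, gave 24.1 and 76.1, not above the brightest bacterial control. With 2 arrays in 1 group, no check for single arrays that stand apart was possible, and no effects of groups were compared.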

How the results depend on the processing

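Of 104 alternative values, 91 stayed within 1.5 times the reported count or within the spread between arrays. For the array difference that limit was 0.152, larger than its reported value of 0.082, so its alternatives could hardly leave it. Looser settings could not lower a count of genes. The 91 is therefore no measure of stability. All 10 genes were bright on each array alone, with both lower cutoffs and with probe sets that name several genes added. The arrays taken alone and the lower cutoffs could give no fewer than 10, since all 10 passed the reported cutoff on both arrays. Adding probe sets could hardly lower the number either. The number was 9 of 10 with the 75th percentile and with averaged probe sets. It was 9 of 9 without suffixed probe sets, which removes H2-D1 and leaves H2-K1 with 97700_at alone. Without suffixed probe sets the bright probe sets became 10 of 10 and the median log2 signal 11.258. The other heavy chains became 2 of 4 and the constitutive catalytic subunits 1 of 2, against 43.4% of all genes. The mean over probe sets gave a median of 10.976 and 1 of 4 loading helpers, against 38.3% of all genes. With the 75th percentile 4 of 9 other heavy chains, 0 of 6 class I-like molecules and 1 of 4 loading helpers were bright. So were 1 of 6 interferon gamma genes and 2 of 11 receptors, against 28.5% of all genes for each list. These counts are lower by the construction of a higher cutoff. With the highest bacterial control 7 of 11 receptors passed, against 73.9% of all genes. Adding probe sets that name several genes gave 15 of 17 other heavy chains. Such a probe set was counted for each gene it names, so these 15 are not separate measurements. The share over all genes was not computed for this setting. The median size of the array difference, 0.082, ranged from 0.063 to 0.091. No paired analysis was possible because there is only 1 group.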

Other observations

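Class I genes that have no probe set of their own were read by probe sets that name several genes. The 2 probe sets of H2-T9, H2-T10 and H2-T22 gave 2395.1 and 2625.7, and 2167.2 and 2325.1, on arrays 1 and 2. The probe set of H2-T23, the Qa-1 chain that CD94 receptors bind, also names a pseudogene and gave 1664.7 and 1605.8. The probe set of H2-Q5, H2-Q7 and H2-Q9 gave 15779.1 and 14708.3. The 2 probe sets of H2-T3 and H2-T18 disagreed, with 742.1 and 656.0 for 96976_f_at and 49.2 and 37.5 for 102692_s_at. These values belong to no single gene.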
